A study of Mus musculus with 27 samples.

Results

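Bone morphogenetic proteins (BMPs) and the secreted proteins that hold them in check were followed by their RNA in primary mouse lung fibroblasts during and after inhibition of the kinase ATM. The set holds 9 of the 48440 genes in the count table. It has 4 ligands (Bmp2, Bmp3, Bmp4 and Bmp6), 4 secreted modulators (Chrdl1, Chrdl2, Grem1 and Bmper) and 1 target gene of the pathway (Id1). The genes were named by symbol, and each symbol was matched to the Ensembl ID of its row. All 9 were among the 18684 genes tested. They were chosen with their levels and fold changes in these groups already known, so their values are a description and carry no p-value.

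The cells were wild-type C57BL/6 primary lung fibroblasts, and all 27 libraries share that origin, with 3 libraries in each of 9 groups. In 2 groups the cells had KU60019 at 3 uM for 15 or 35 d, which blocks ATM, a kinase of the DNA damage response, and in another 2 groups the inhibitor was then removed and the cells were harvested 20 d later. One group was harvested 10 d after an X-ray dose of 10 Gy, and the series design calls it a positive control for senescent cells. The vehicle DMSO was given to 4 groups, for 15 or 35 d and with or without removal for 20 d. The labels name no separate control for irradiation, so the DMSO 15 d group served for both the KU60019 15 d and the 10 Gy groups, and those comparisons share their control libraries.

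BMPs are secreted dimers of the transforming growth factor beta family. They bind paired type I and type II receptor kinases, which phosphorylate SMAD1, SMAD5 and SMAD9, and these enter the nucleus with SMAD4 and switch on genes such as the Id family. Secreted antagonists bind the ligands outside the cell. In the lung, BMP4 takes part in airway branching, and gremlin, the product of Grem1, is raised in fibrotic lung.

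Each of the 9 genes codes for a protein, with positions given on GRCm38. Bmp2 (ENSMUSG00000027358) lies at chr2:133552159-133562885, Grem1 (ENSMUSG00000074934) at chr2:113746164-113758646 and Id1 (ENSMUSG00000042745) at chr2:152736251-152737410. Bmp3 (ENSMUSG00000029335) is at chr5:98854415-98884396, Bmp4 (ENSMUSG00000021835) at chr14:46383520-46390669 and Bmp6 (ENSMUSG00000039004) at chr13:38345107-38500302. Chrdl1 (ENSMUSG00000031283) is at chrX:143285674-143394262, Chrdl2 (ENSMUSG00000030732) at chr7:100006172-100034728 and Bmper (ENSMUSG00000031963) at chr9:23223076-23485200. Bmp4, Chrdl1 and Grem1 are on the minus strand and the other 6 on the plus strand.

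RefSeq promoters on GRCm38.p6 were found for 4 of the 9 genes, Bmp4, Bmp6, Grem1 and Bmper, and only these are shown. Bmp2, Bmp3, Chrdl1, Chrdl2 and Id1 had no entry that matched. The 250 bases before the RefSeq start are given 5′ to 3′ on the gene's strand, for Bmp4 chr14:46390670-46390919 (minus), Bmp6 chr13:38345466-38345715 (plus), Grem1 chr2:113758649-113758898 (minus) and Bmper chr9:23222826-23223075 (plus). The Bmp6 window lies inside the longer GRCm38 gene model given above. Capitals mark GGCGCC, a motif of SMAD sites in BMP target genes, GTCTG or its reverse complement CAGAC, the general SMAD-binding element, and CACGTG, an E-box.
Bmp4: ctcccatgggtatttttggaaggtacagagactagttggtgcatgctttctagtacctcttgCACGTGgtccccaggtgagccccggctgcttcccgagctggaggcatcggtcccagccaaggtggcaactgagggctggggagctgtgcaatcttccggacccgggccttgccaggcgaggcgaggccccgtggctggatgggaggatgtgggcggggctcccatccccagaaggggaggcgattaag
Bmp6: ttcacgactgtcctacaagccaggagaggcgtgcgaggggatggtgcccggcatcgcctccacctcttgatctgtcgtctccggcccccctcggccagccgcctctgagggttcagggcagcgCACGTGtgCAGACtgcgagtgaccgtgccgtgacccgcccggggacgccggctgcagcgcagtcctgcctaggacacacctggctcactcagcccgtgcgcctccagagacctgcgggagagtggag
Grem1: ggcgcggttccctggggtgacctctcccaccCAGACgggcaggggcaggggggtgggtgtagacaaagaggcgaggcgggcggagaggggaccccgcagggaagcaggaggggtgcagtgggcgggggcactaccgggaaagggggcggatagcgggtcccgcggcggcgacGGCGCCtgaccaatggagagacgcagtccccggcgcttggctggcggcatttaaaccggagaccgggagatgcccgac
Bmper: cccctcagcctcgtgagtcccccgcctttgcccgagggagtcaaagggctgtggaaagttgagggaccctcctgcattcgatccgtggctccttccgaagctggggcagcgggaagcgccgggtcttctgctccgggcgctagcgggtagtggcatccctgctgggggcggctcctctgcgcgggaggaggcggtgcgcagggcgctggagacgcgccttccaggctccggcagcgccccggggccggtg
Bmp4 and Bmp6 each held 1 CACGTG, which occurred in 6.02% of the 32851 mouse promoters of the same length. Bmp6 and Grem1 each held 1 CAGAC, and GTCTG or CAGAC occurred in 42.2% of promoters. Grem1 held 1 GGCGCC, a motif found in 9.59% of promoters, and Bmper held none of the 3 motifs. Both strands were searched, and no matches overlapped. GC content was 63.2% for Bmp4, 68.8% for Bmp6, 72% for Grem1 and 71.6% for Bmper.

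Libraries held between 20659745 and 50859493 counts, with a median of 31265114. Each library has a name such as S1_705, S2_715 or S3_716. The same 3 end numbers recur in each of the 9 groups. The labels do not say whether the end numbers stand for separate animals or cultures, so the spread that p-values rest on may be technical. In order of end number, 9 Schwann cell markers summed to 9.77, 20.4 and 46.6 CPM in DMSO 15 d cells. In KU60019 15 d cells they summed to 14.3, 37.5 and 74.8 CPM. The sum rose in this order in every group except KU60019 15 d removed and DMSO 35 d removed. Those had 8.62, 71.6 and 38.4 CPM, and 20.6, 12.1 and 11.3 CPM. The main model does not pair libraries by end number. All 12 fibroblast markers had counts in every group, with a summed level of at least 12343 CPM in every library. That sum differed between groups, at 12570 to 15176 CPM in KU60019 15 d cells, against 35125 to 52203 CPM in DMSO 15 d cells. It was 12343 to 15474 CPM in KU60019 35 d removed cells, against 15461 to 18903 CPM in DMSO 35 d removed cells, and DMSO 35 d cells had 43049 to 52858 CPM. The library furthest from its group was DMSO 35 d removed library S19_705, which had the lowest depth and a TMM factor of 0.694. KU60019 15 d removed library S11_715, DMSO 35 d removed library S21_716 and DMSO 15 d library S2_715 came next, and where leaving one of them out ends or makes a call, or moves a called value by over 1.5 times, the value without it is given.

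Levels are CPM (counts scaled to library size with TMM factors), and 3 values in a row are the libraries of a group from the lowest to the highest end number. Means are ± SD (n = 3), and log2 fold changes ± SE are from edgeR's quasi-likelihood fit. A gene passed when its Benjamini-Hochberg adjusted p over all genes tested was under 0.05. To compare genes with each other, the deposited TPM, which is scaled to gene length, is used. By mean TPM over the 27 libraries Grem1 stood first at 663, followed by Id1 at 97.2, Bmper at 77.7, Chrdl2 at 56.6 and Bmp4 at 36.5. Bmp3 had 15.6 TPM, Bmp6 3.67, Chrdl1 0.745 and Bmp2 0.625.

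**Figure D1:**
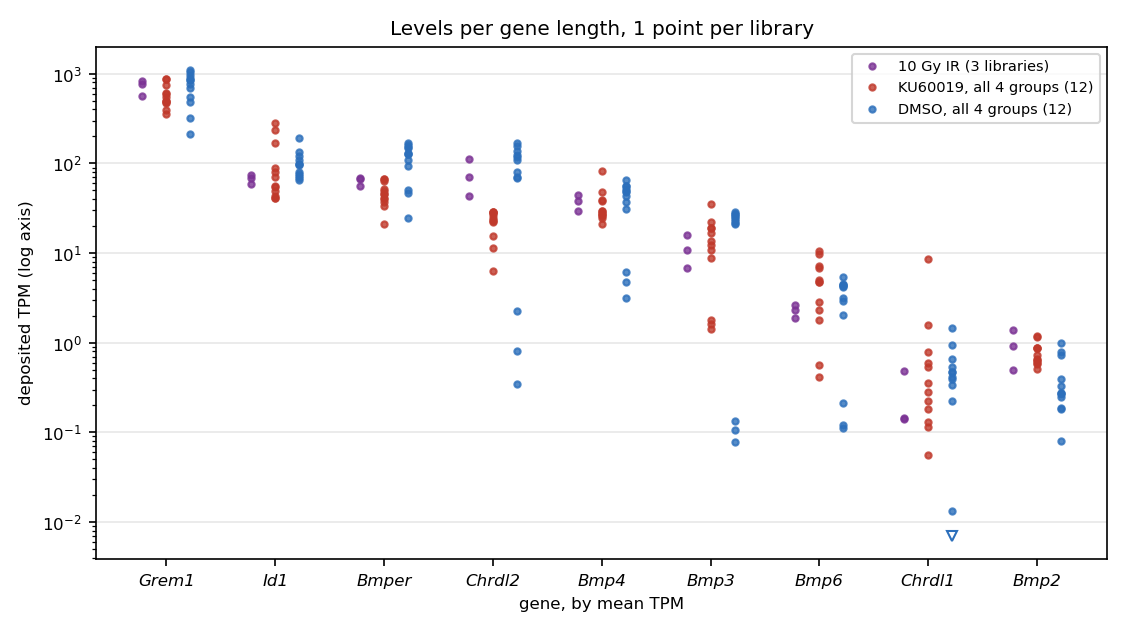
Deposited TPM (log axis) of the 9 genes in each of the 27 libraries, ordered by mean TPM, with irradiated, KU60019 and DMSO libraries side by side and an open triangle for the single value of 0. Grem1 lies at 215 TPM or more in every library, and for Bmp3, Bmp6 and Chrdl2 the 3 lowest points are DMSO libraries.

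The fold between the highest and the lowest group mean in CPM was 201 for Bmp3, 84.4 for Chrdl2, 50.6 for Chrdl1 and 44.3 for Bmp6. It was 8.04 for Bmp4, 6.29 for Id1, 4.60 for Bmp2, 2.77 for Bmper and 1.82 for Grem1. For 5 of the 9 genes (Bmp3, Bmp4, Bmp6, Chrdl1 and Chrdl2) the lowest mean in CPM was that of DMSO 35 d removed cells. For Chrdl1 it was close to that of KU60019 15 d cells (0.234 and 0.240 CPM). On TPM these cells were also lowest for Bmp2 and Grem1. Against DMSO 35 d cells, 64.1% of all genes passed in DMSO 35 d removed cells. In a bulk library, fewer cells of a type and less RNA per cell cannot be told apart.

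**Figure D2:**
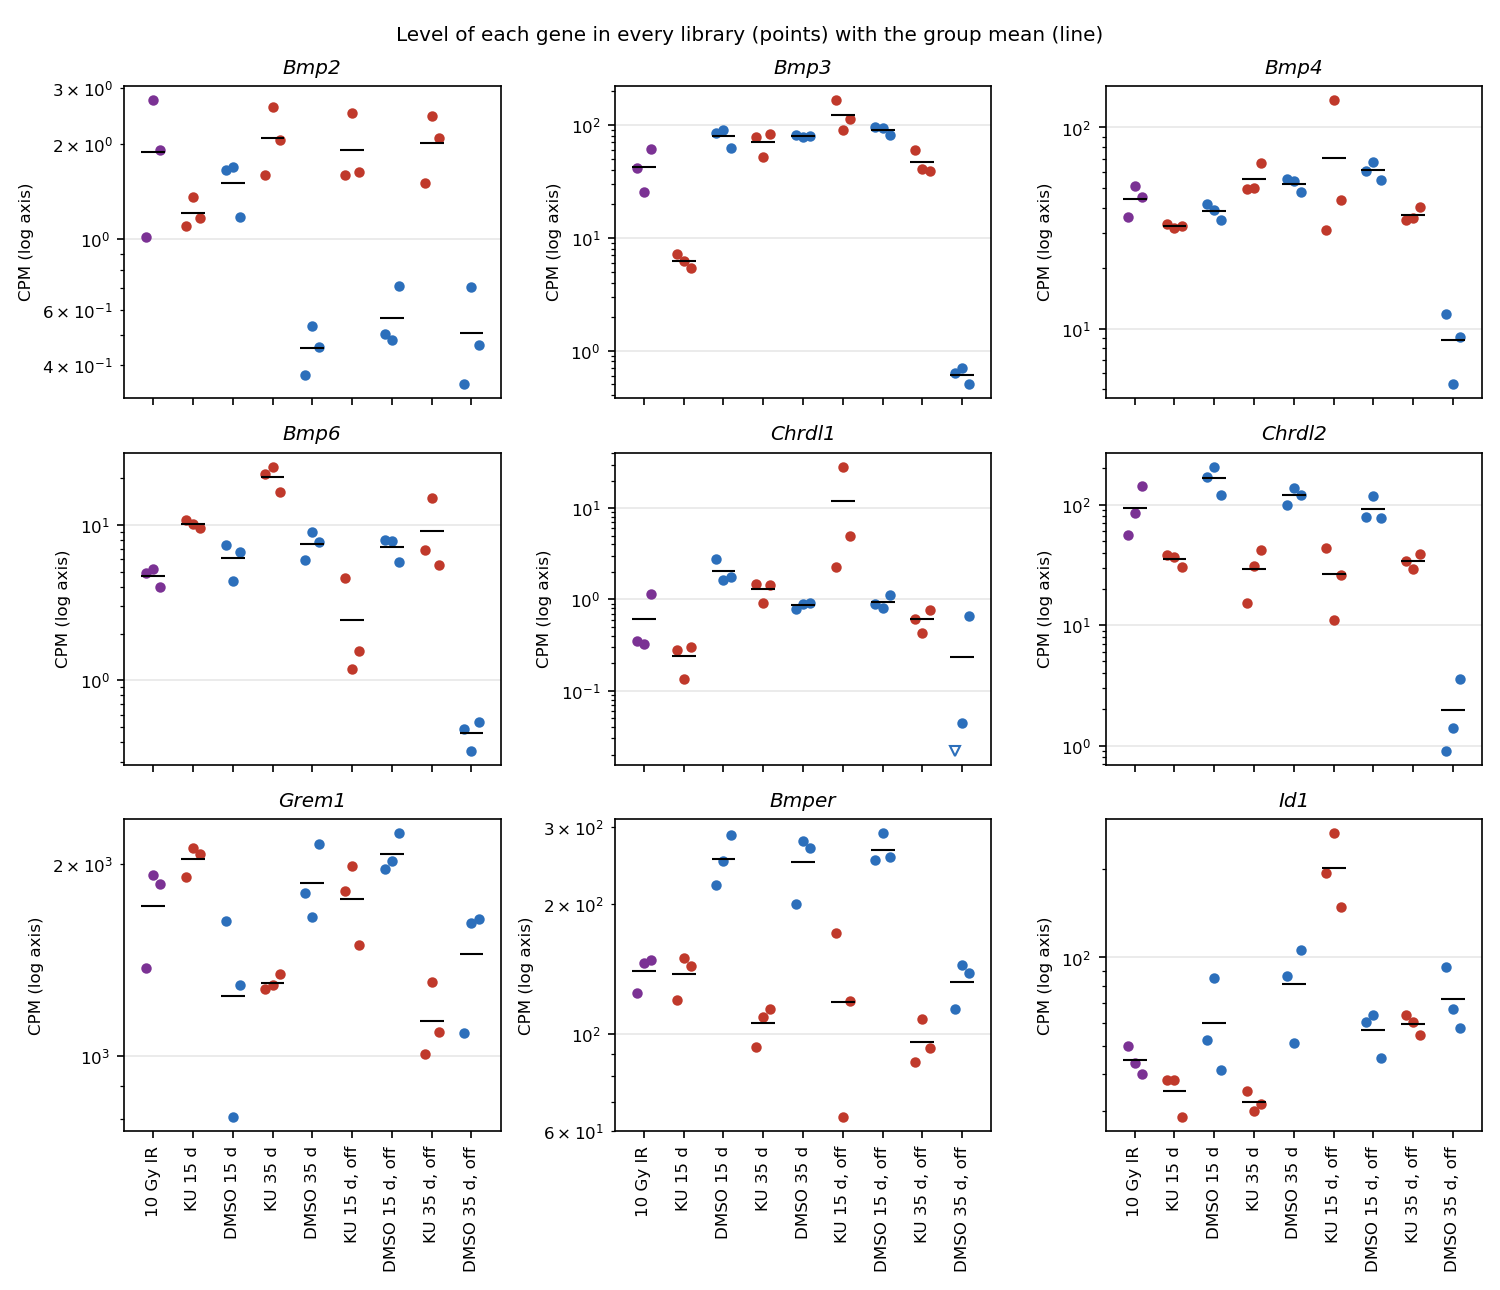
CPM (log axis) of each gene in every library, as points and a line for the group mean; an open triangle marks a count of 0 for Chrdl1. Bmp3, Bmp4, Bmp6 and Chrdl2 are lowest in the DMSO 35 d removed group, and Bmper lies at 199 CPM or more in every library of the DMSO 15 d, DMSO 35 d and DMSO 15 d removed groups and below that in the other 6.

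Under KU60019 for 15 d, Bmp3, Chrdl1, Chrdl2, Bmper and Id1 were lower than under DMSO and Grem1 was higher. These 6 of 9 passed, where 30.3% of all genes tested passed, 13.2% higher and 17.1% lower. Under KU60019 for 35 d, Chrdl2, Bmper and Id1 were again lower and Bmp2 and Bmp6 were higher, which is 5 of 9 where 18.1% of all genes passed, 9.7% higher and 8.4% lower. With the 15 d treatment removed, Bmp2, Chrdl1 and Id1 were higher and Bmp6, Chrdl2 and Bmper lower than in the matching DMSO cells, 6 of 9 where 48.7% of all genes passed, 24.7% higher and 24% lower. With the 35 d treatment removed, Bmp2, Bmp3, Bmp4, Bmp6 and Chrdl2 were higher and 0 were lower, 5 of 9 where 48.9% passed, 24.4% higher and 24.5% lower. Irradiated cells had lower Bmp3 and Bmper than DMSO 15 d cells, 2 of 9 where 30.9% passed, 14.1% higher and 16.8% lower. Between the DMSO 35 d and DMSO 15 d groups Bmp2 alone passed and was lower at 35 d, 1 of 9 where 1.56% passed, 0.455% higher and 1.11% lower. Because the genes were chosen from these contrasts, nothing is read from these shares.

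The effect of KU60019 was also compared between stages. At 35 d against 15 d it was higher for 3 members and lower for 1, 4 of 9 where 11.7% of all genes passed, 7.11% higher and 4.58% lower. After against before removal it was higher for 4 and lower for 2 in the 15 d arm, where 25.4% passed, 14% higher and 11.4% lower. In the 35 d arm it was higher for 5 and lower for 0, where 32.4% passed, 15.8% higher and 16.6% lower. Comparisons within a treatment were added after the values had been seen. KU60019 15 d removed cells against KU60019 15 d cells had 4 members higher (Bmp3, Bmp4, Chrdl1 and Id1) and 1 lower (Bmp6), where 40.3% of all genes passed, 21.3% higher and 19% lower. KU60019 35 d removed cells against KU60019 35 d cells had Id1 higher and Bmp6 lower (-1.17 ± 0.36), where 12.6% passed, 5.77% higher and 6.82% lower, and with libraries left out in turn 0 to 1 members passed. The 2352 genes called in that comparison were 629 without S24_716. DMSO 15 d removed against DMSO 15 d had Grem1 higher (0.74 ± 0.21) and Bmp2 lower (-1.39 ± 0.33), where 7.02% passed, 3.78% higher and 3.24% lower, with 0 to 2 members when libraries were left out and 754 genes without S9_716 in place of 1312. The Grem1 call was lost without S2_715 (0.49) and without 4 of the other 5 libraries. DMSO 35 d removed against DMSO 35 d had 5 members lower (Bmp3, Bmp4, Bmp6, Chrdl2 and Bmper) and 0 higher, where 64.1% passed, 31.5% higher and 32.6% lower.

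**Figure D3:**
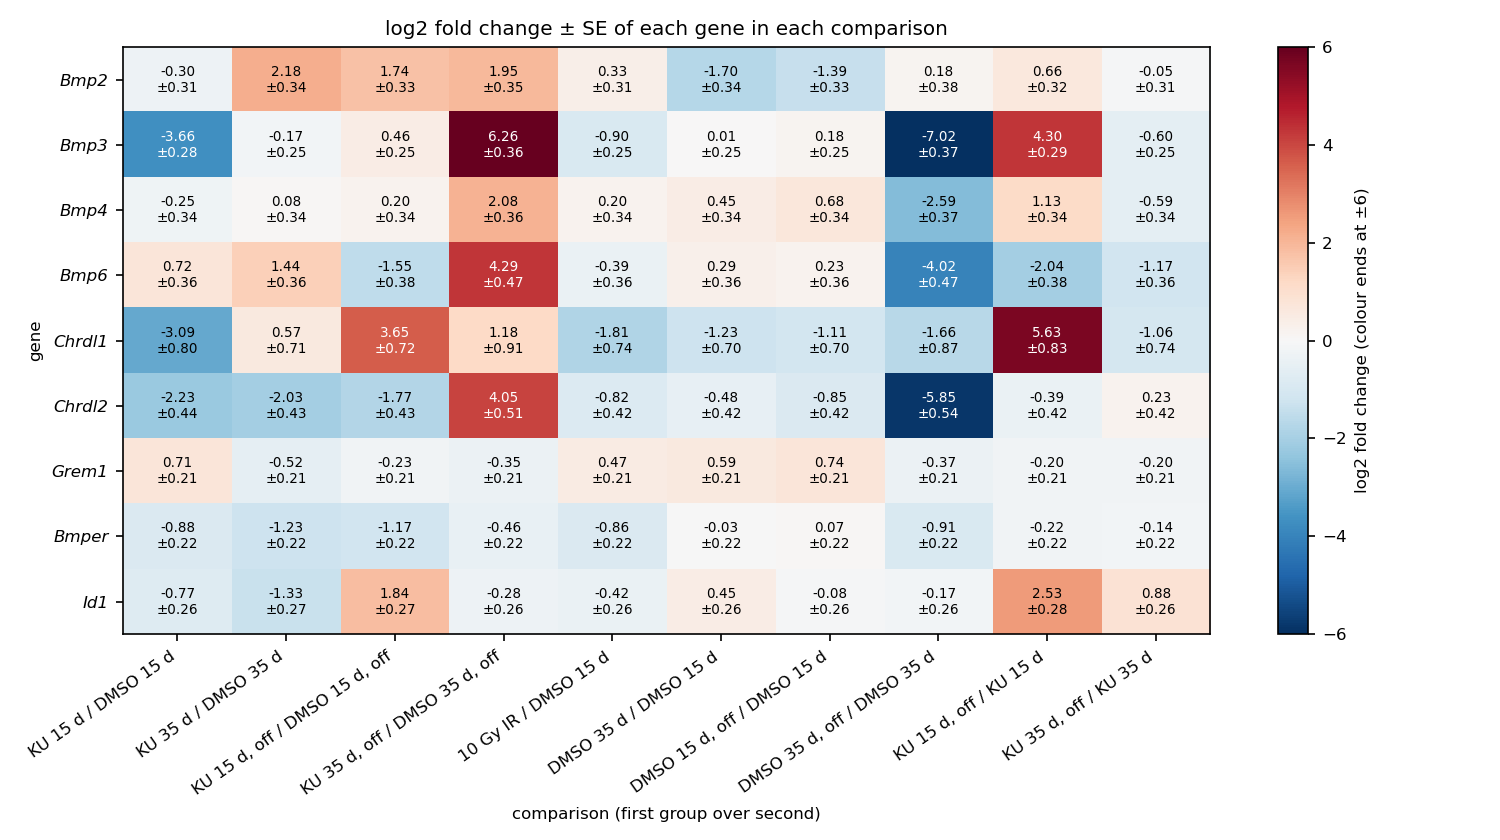
Log2 fold change ± SE of the 9 genes (rows) in 10 comparisons (columns, first group over second), coloured from -6 (blue) to 6 (red). Chrdl2 and Bmper are blue in the first 3 KU60019 columns, and Bmp3 is at 6.26 for KU60019 35 d removed over DMSO 35 d removed and -3.66 for KU60019 15 d over DMSO 15 d.

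Bmp2 encodes a ligand that induces bone and signals through SMAD1 and SMAD5. Its RNA was scarce, at 33 to 209 counts per group. It had 1.60, 2.62 and 2.06 CPM in KU60019 35 d cells, against 0.373, 0.534 and 0.458 CPM in DMSO 35 d cells. After removal it had 1.60, 2.50 and 1.63 CPM in KU60019 15 d removed cells, against 0.504, 0.482 and 0.712 CPM in DMSO 15 d removed cells. It also had 1.505, 2.44 and 2.08 CPM in KU60019 35 d removed cells, against 0.349, 0.706 and 0.465 CPM in DMSO 35 d removed cells. In each of these 3 pairs every KU60019 library was above every DMSO library. The log2 fold changes were 2.18 ± 0.34, 1.74 ± 0.33 and 1.95 ± 0.35.

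At 15 d the pattern of Bmp2 was another one, with 1.10, 1.36 and 1.17 CPM under KU60019, against 1.65, 1.68 and 1.18 CPM under DMSO, which overlapped (-0.30 ± 0.31). The level in DMSO cells differed with culture time, since DMSO 35 d cells averaged 0.455 ± 0.0807 CPM, against 1.503 ± 0.283 CPM in DMSO 15 d cells (-1.70 ± 0.34). That call was lost without DMSO 35 d library S13_705 or S15_716, in a fit of the compared groups alone and on TPM. The 10 Gy libraries had 1.02, 2.75 and 1.91 CPM and overlapped DMSO 15 d (0.33 ± 0.31). Against DMSO 35 d the value was 2.04, against DMSO 15 d removed 1.72 and against DMSO 35 d removed 1.86. Each of these passed. In order, DMSO 35 d, DMSO 35 d removed and DMSO 15 d removed were lowest and within their spread of each other. A step larger than the SD separated them from KU60019 15 d, another led to DMSO 15 d, and the upper 5 means did not differ from their neighbours beyond their spread. Over the libraries, the genes with the most similar pattern were Chmp2b (Pearson r of log2 CPM 0.80) and Sox10 (0.79), a marker of Schwann cells. The 9 Schwann cell markers summed to 12.8 to 117 CPM in KU60019 35 d cells, against 3.39 to 5.49 CPM in DMSO 35 d cells. In KU60019 15 d removed cells the sum was 8.62 to 71.6 CPM, against 3.84 to 6.14 CPM in DMSO 15 d removed cells. The 35 d removed groups overlapped in this sum, with 10.2 to 41.0 CPM after KU60019, against 11.3 to 20.6 CPM after DMSO. In DMSO 35 d removed cells Foxd3 and Cdh19 of these markers were at 0 in all libraries. Of the 8 markers that could be tested, 7 were higher after KU60019 in this pair and 0 lower. Of all genes, 24.4% passed higher there and 24.5% lower. The part of these markers in the Bmp2 values was not tested.

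Bmp3 encodes an atypical BMP that opposes other BMPs. It had 7.14, 6.26 and 5.37 CPM in KU60019 15 d cells, against 84.5, 90.2 and 62.8 CPM in DMSO 15 d cells. No KU60019 library came near the DMSO range, and the log2 fold change was -3.66 ± 0.28. In KU60019 35 d cells the levels were 78.1, 51.5 and 82.8 CPM, against 80.7, 78.5 and 79.3 CPM in DMSO 35 d cells, and the groups overlapped (-0.17 ± 0.25). The difference between the 35 d and the 15 d KU60019 effects was 3.49 ± 0.37 on the log2 scale.

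Once the 15 d treatment had been removed, Bmp3 stood at 166, 90.2 and 114 CPM in KU60019 15 d removed cells, against 94.9, 93.6 and 80.9 CPM in DMSO 15 d removed cells (0.46 ± 0.25). KU60019 15 d removed cells were thus above KU60019 15 d cells in every library (4.30 ± 0.29). In the 35 d arm after removal it had 60.1, 40.9 and 39.2 CPM in KU60019 35 d removed cells, against 0.628, 0.706 and 0.504 CPM in DMSO 35 d removed cells, where its counts came to 38 in all. The log2 fold change was 6.26 ± 0.36. The DMSO arm also differed from its earlier stage, as DMSO 35 d removed against DMSO 35 d gave -7.02 ± 0.37, whereas KU60019 35 d removed against KU60019 35 d gave -0.60 ± 0.25. Without DMSO 35 d removed library S19_705 the KU60019 value was 6.27, and without S21_716 it was 6.12.

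Irradiated cells had 41.7, 25.2 and 60.7 CPM of Bmp3, below every DMSO 15 d library (-0.90 ± 0.25). That call was lost without the 10 Gy library S26_715 (-0.63) and in a fit of the compared groups alone, and the sign turned with DMSO 35 d removed cells as the control (6.12). In the order of means, DMSO 35 d removed was lowest and KU60019 15 d next, each set off by more than the SD. The 10 Gy and KU60019 35 d removed groups followed and did not differ beyond their spread, and KU60019 35 d, DMSO 15 d and DMSO 35 d came next and lay together. DMSO 15 d removed and KU60019 15 d removed were highest and lay within their spread of each other. Abca8a (r 0.97), a lipid transporter of the ABC family, and Ces1d (r 0.96), a carboxylesterase, had the most similar patterns of the 11407 genes compared.

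Bmp4 encodes the ligand of lung branching named above. In most groups it held a narrow range, with 33.0, 31.5 and 32.3 CPM under KU60019 at 15 d, against 41.6, 38.7 and 34.6 CPM under DMSO (-0.25 ± 0.34). At 35 d it had 49.6, 49.9 and 66.6 CPM under KU60019, against 55.3, 54.0 and 47.7 CPM under DMSO (0.08 ± 0.34). The 10 Gy libraries had 35.9, 51.0 and 45.3 CPM and overlapped DMSO 15 d (0.20 ± 0.34). The low group was DMSO 35 d removed. KU60019 35 d removed cells had 34.7, 35.3 and 40.2 CPM, against 11.9, 5.30 and 9.11 CPM in DMSO 35 d removed cells (2.08 ± 0.36, and 2.34 without DMSO 35 d removed library S19_705). DMSO 35 d removed against DMSO 35 d gave -2.59 ± 0.37. On TPM the spread from the lowest to the highest group mean was 12.4-fold.

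One library set the KU60019 15 d removed value of Bmp4. That group had 30.9, 137 and 43.7 CPM, against 61.1, 67.5 and 54.9 CPM in DMSO 15 d removed cells (0.20 ± 0.34). Without library S11_715 the log2 fold change was -0.72, with the opposite sign, and it passed. The rise over KU60019 15 d cells (1.13 ± 0.34) came to 0.20 without that library and did not pass, nor did it in a fit of the compared groups alone or on TPM. In the order of means, DMSO 35 d removed was lowest and KU60019 15 d next, each apart by more than the SD, and of the later steps only that from 10 Gy to DMSO 35 d exceeded it. Bmp4 shares its locus with the opposite-strand genes Gm15217 and Gm15222, which held 192 and 728 counts, against 38738 for Bmp4. Hr (r 0.92), a nuclear corepressor, and Elmod3 (r 0.90) had the most similar patterns.

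Bmp6 encodes a ligand known for inducing hepcidin in iron balance. It had 21.2, 23.7 and 16.4 CPM in KU60019 35 d cells, against 5.93, 8.95 and 7.72 CPM in DMSO 35 d cells (1.44 ± 0.36). At 15 d it had 10.8, 10.1 and 9.63 CPM under KU60019, against 7.39, 4.37 and 6.71 CPM under DMSO, without overlap but short of the threshold (0.72 ± 0.36). Both inhibitor groups were thus above their DMSO groups in every library. The 35 d call was lost on log2(TPM + 0.1).

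The direction of Bmp6 was the opposite one after removal of the 15 d treatment. KU60019 15 d removed cells had 4.57, 1.19 and 1.54 CPM, against 8.03, 7.91 and 5.82 CPM in DMSO 15 d removed cells (-1.55 ± 0.38, and -1.22 without library S11_715). The KU60019 effect after removal minus that before was -2.27 ± 0.52. In the 35 d arm KU60019 35 d removed cells had 6.95, 15.0 and 5.50 CPM, against 0.489, 0.353 and 0.543 CPM in DMSO 35 d removed cells (4.29 ± 0.47, and 4.32 without DMSO 35 d removed library S19_705). The DMSO 35 d removed libraries held 29 counts in all, and their value against DMSO 35 d was -4.02 ± 0.47. Irradiated cells had 4.88, 5.20 and 3.99 CPM and overlapped DMSO 15 d (-0.39 ± 0.36).

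The order of Bmp6 means placed DMSO 35 d removed lowest and KU60019 15 d removed next, each apart by more than the SD, and KU60019 35 d highest by the same measure. The 6 groups between lay within their spread of their neighbours. Rtl5, a gene derived from a retrotransposon, and Hoga1, a mitochondrial aldolase, had the most similar patterns (r 0.93 each). Bmp6 overlaps Txndc5 on the opposite strand, which held 410531 counts, against 7082 for Bmp6, so its values are uncertain because the use of strand in counting is not given. Txndc5 itself was -0.71 ± 0.14 in DMSO 35 d removed against DMSO 35 d, and between KU60019 35 d and DMSO 35 d it was -0.09 ± 0.14.

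Chrdl1 encodes chordin-like 1, an antagonist that binds BMP4. It had 0.282, 0.134 and 0.304 CPM in KU60019 15 d cells, against 2.75, 1.61 and 1.74 CPM in DMSO 15 d cells (-3.09 ± 0.80), and these KU60019 libraries held 27 counts together. The call was lost on log2(TPM + 1) (-0.86). In KU60019 15 d removed cells it had 2.28, 28.4 and 4.95 CPM, against 0.882, 0.804 and 1.13 CPM in DMSO 15 d removed cells. All 3 libraries were above the DMSO range, but library S11_715 was far above the other two. The log2 fold change was 3.65 ± 0.72, and 1.93 without library S11_715, which still passed. KU60019 35 d cells had 1.49, 0.920 and 1.45 CPM, against 0.783, 0.880 and 0.915 CPM in DMSO 35 d cells (0.57 ± 0.71). Irradiated cells had 0.349, 0.321 and 1.15 CPM, below every DMSO 15 d library but short of the threshold (-1.81 ± 0.74), which it passed without S27_716 (-2.59).

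In DMSO 35 d removed cells 17 of the 18 counts of Chrdl1 were in library S21_716. Against DMSO 35 d cells the value was -1.66 ± 0.87, and -4.82 without S21_716, which passed. KU60019 35 d removed cells had 0.617, 0.427 and 0.774 CPM, against 0, 0.0441 and 0.659 CPM in DMSO 35 d removed cells (1.18 ± 0.91). Without DMSO 35 d removed library S21_716 the value was 4.34 and passed. The order of means ran from DMSO 35 d removed and KU60019 15 d, which lay together, by a step above the SD to KU60019 35 d removed, 10 Gy, DMSO 35 d and DMSO 15 d removed, whose neighbours did not differ beyond their spread. Steps above the SD then led to KU60019 35 d and to DMSO 15 d, and KU60019 15 d removed was highest without exceeding its own large SD. The most similar patterns were those of Plvap (r 0.92), a diaphragm protein of endothelial cells, and Fmo1 (r 0.91), a monooxygenase. The 12 endothelial markers summed to 21.6 to 27.7 CPM in KU60019 15 d cells, against 55.8 to 147 CPM in DMSO 15 d cells, and their part in the Chrdl1 values was not tested. In KU60019 15 d removed cells that sum was 30.3 to 49.9 CPM, against 36.0 to 49.2 CPM in DMSO 15 d removed cells.

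Chrdl2 encodes chordin-like 2, a related antagonist. It had 38.1, 37.0 and 30.5 CPM in KU60019 15 d cells, against 169.8, 206 and 121 CPM in DMSO 15 d cells (-2.23 ± 0.44). At 35 d it had 15.2, 30.8 and 41.7 CPM under KU60019, against 99.0, 138 and 120.0 CPM under DMSO (-2.03 ± 0.43). The 2 effects differed by 0.20 ± 0.59. The third pair had 43.3, 10.96 and 25.96 CPM in KU60019 15 d removed cells, against 79.2, 118 and 77.9 CPM in DMSO 15 d removed cells (-1.77 ± 0.43, and -1.40 without library S11_715). KU60019 libraries were thus below every DMSO library in 3 pairs of groups.

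The remaining pair ran the other way. KU60019 35 d removed cells had 33.9, 29.4 and 38.9 CPM of Chrdl2, against 0.908, 1.41 and 3.57 CPM in DMSO 35 d removed cells (4.05 ± 0.51, 3.75 without DMSO 35 d removed library S19_705 and 4.84 without S21_716). All 4 KU60019 groups averaged between 26.7 and 35.2 CPM, and DMSO 35 d removed against DMSO 35 d gave -5.85 ± 0.54, or -6.63 without S21_716. The 10 Gy libraries had 55.5, 84.4 and 141 CPM and overlapped DMSO 15 d (-0.82 ± 0.42). The 4 KU60019 means lay within their spread of their neighbours, DMSO 35 d removed was below them by more than the SD, and a step above the SD led to DMSO 15 d removed, 10 Gy and DMSO 35 d and another to DMSO 15 d. Adarb1 (r 0.96), an RNA-editing enzyme, and Fhl1 (r 0.95), a LIM-domain protein of muscle, had the most similar patterns.

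Grem1 encodes gremlin, an antagonist of BMP2 and BMP4. It was abundant in every group, and its means in CPM did not differ from their neighbours in order beyond their spread. It had 1909, 2112 and 2074 CPM in KU60019 15 d cells, against 1627, 804 and 1291 CPM in DMSO 15 d cells (0.71 ± 0.21). The low library S2_715 bore on this call, which was lost without it (0.48), in a fit of the compared groups alone and on TPM. KU60019 35 d cells had 1275, 1294 and 1343 CPM, against 1801, 1649 and 2148 CPM in DMSO 35 d cells, without overlap but short of the threshold (-0.52 ± 0.21), which it passed in a fit of the compared groups alone and on TPM. The difference of the effects, -1.23 ± 0.29, was -0.99 without DMSO 15 d library S2_715 and still passed.

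After removal Grem1 had 1812, 1983 and 1492 CPM in KU60019 15 d removed cells, against 1962, 2016 and 2230.4 CPM in DMSO 15 d removed cells (-0.23 ± 0.21). It had 1008, 1306 and 1091 CPM in KU60019 35 d removed cells, against 1086, 1618 and 1637 CPM in DMSO 35 d removed cells (-0.35 ± 0.21). Without S19_705 that value was -0.52 and passed. Irradiated cells had 1376, 1919 and 1859 CPM (0.47 ± 0.21 against DMSO 15 d). Scaling mattered for KU60019 15 d removed against DMSO 15 d removed cells, where Grem1 was at -0.81, past the threshold, on both TPM scales. It also mattered for the long DMSO culture. There DMSO 35 d removed against DMSO 35 d gave -0.37 ± 0.21 on counts and -1.22, past the threshold, on log2(TPM + 1). Crlf3 (r 0.83), a cytokine receptor-like factor, and Irak2 (r 0.80), a kinase of interleukin-1 signalling, had the most similar patterns.

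Bmper encodes a secreted BMP-binding regulator that can promote or block signalling. It had 120.1, 150.1 and 144 CPM in KU60019 15 d cells, against 221, 250.2 and 288 CPM in DMSO 15 d cells (-0.88 ± 0.22). At 35 d the levels were 93.5, 109.8 and 115 CPM under KU60019, against 199, 278 and 268 CPM under DMSO (-1.23 ± 0.22). With the 15 d treatment removed they were 172, 64.5 and 119.5 CPM in KU60019 15 d removed cells, against 252, 290.1 and 255 CPM in DMSO 15 d removed cells (-1.17 ± 0.22, and -0.87 without library S11_715). Irradiated cells had 125, 146 and 149 CPM, also below every DMSO 15 d library (-0.86 ± 0.22). In each of these comparisons the groups did not overlap.

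In the late cultures Bmper was low in both arms, with 86.2, 108 and 93.0 CPM in KU60019 35 d removed cells, against 114, 144 and 138 CPM in DMSO 35 d removed cells (-0.46 ± 0.22, short of the threshold). DMSO 35 d removed against DMSO 35 d gave -0.91 ± 0.22, and with DMSO 35 d removed cells as the control the irradiation value was 0.08. The order of means fell into 2 sets with 1 step above the SD. Below it were the 4 KU60019 groups, DMSO 35 d removed and 10 Gy, from 95.9 to 139.6 CPM, and above it DMSO 35 d, DMSO 15 d and DMSO 15 d removed, from 249 to 266 CPM. Filip1l (r 0.92), a filamin-interacting protein, and Plcb3 (r 0.91), a phospholipase, had the most similar patterns.

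Id1 encodes an inhibitor of DNA binding by helix-loop-helix factors and is a direct target of BMP-activated SMADs. It had 38.3, 38.1 and 28.5 CPM in KU60019 15 d cells, against 52.3, 85.2 and 41.3 CPM in DMSO 15 d cells (-0.77 ± 0.26). The groups did not overlap, but the call was lost without DMSO 15 d library S2_715 (-0.42) and without KU60019 15 d library S5_715 or S6_716, in a fit of the compared groups alone and with no filter on low counts. At 35 d it had 34.9, 30.0 and 31.7 CPM under KU60019, against 86.2, 51.0 and 106 CPM under DMSO (-1.33 ± 0.27). The 10 Gy libraries had 49.98, 43.7 and 39.9 CPM and overlapped DMSO 15 d (-0.42 ± 0.26). Against DMSO 35 d the value was -0.87 and against DMSO 35 d removed -0.70, and both passed.

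Id1 was at its highest after removal of the 15 d treatment, with 194, 265 and 149 CPM in KU60019 15 d removed cells, against 60.2, 63.9 and 45.3 CPM in DMSO 15 d removed cells (1.84 ± 0.27, and 1.60 without library S11_715). It was also above KU60019 15 d cells in every library (2.53 ± 0.28). KU60019 35 d removed cells had 63.6, 60.3 and 54.3 CPM, against 92.9, 66.9 and 57.3 CPM in DMSO 35 d removed cells, which overlapped (-0.28 ± 0.26), while against KU60019 35 d cells the value was 0.88 ± 0.26, a call lost without any 1 of the 6 libraries. KU60019 35 d and 15 d were the lowest means and lay together, steps above the SD led to 10 Gy and then to DMSO 15 d removed, and KU60019 15 d removed was highest by more than the SD. On log2(TPM + 1), DMSO 35 d removed against DMSO 35 d gave -0.96 for Id1, past the threshold, and on counts -0.17 ± 0.26. Ech1 (r 0.89), an enzyme of fatty acid oxidation, and Hdhd3 (r 0.88) had the most similar patterns. These correlations and those above are descriptions over the 27 libraries, which share groups and depth, and carry no p.

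The values of KU60019 15 d removed library S11_715 were at an end of its group for every gene, with Bmp2, Bmp4, Chrdl1, Grem1 and Id1 the highest and Bmp3, Bmp6, Chrdl2 and Bmper the lowest of the 3 libraries. The summed level of the 9 Schwann cell markers was 71.6 CPM in that library, against 8.62 and 38.4 CPM in S10_705 and S12_716. The part of these markers in the values was not tested. In DMSO 35 d removed cells, 7 epithelial markers summed to 24.3 to 71.6 CPM, against 1.39 to 1.94 CPM in DMSO 35 d cells. Krt8 and Nkx2-1 were at 0 in all libraries of the group. Libraries S19_705, S20_715 and S21_716 had 5, 4 and 3 of the 7 at 0. Only 3 of the 7 could be tested, with 2 higher and 0 lower. Of all genes, 31.5% passed higher and 32.6% lower between these groups, which also applies to the 2 marker lists that follow. The 7 mesothelial markers summed to 26.5 to 85.0 CPM in DMSO 35 d removed cells, against 4.61 to 5.89 CPM in DMSO 35 d cells, with Muc16 at 0. Of the 6 that could be tested, 3 were higher and 1 lower. The summed fibroblast markers were 15461 to 18903 CPM there, against 43049 to 52858 CPM in DMSO 35 d cells, with 3 of the 12 higher, 9 lower and 0 at a count of 0. The epithelial and mesothelial sums were also higher in KU60019 15 d cells than in DMSO 15 d cells. The epithelial sum was 13.5 to 17.7 CPM, against 2.29 to 4.87 CPM. The mesothelial sum was 16.9 to 22.9 CPM, against 5.52 to 9.35 CPM. The part of these 3 marker lists in the low Bmp3, Bmp4, Bmp6 and Chrdl2 of DMSO 35 d removed cells, or in the low Bmp3 of KU60019 15 d cells, was not tested.

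The rest of the pathway was taken from 5 lists of 65 genes (12 other ligands, 20 other secreted modulators, 12 receptors and co-receptors, 10 SMADs and their regulators and 11 other target and feedback genes), of which 54 could be tested. These lists were chosen with earlier results of these data known, so the adjusted p-values printed for their genes are descriptions, not independent tests. Under KU60019 for 15 d, 9 rose and 18 fell, where 13.2% of all genes passed higher and 17.1% lower. The median log2 fold change was -0.25, against -0.02 over all genes. Among ligands, Gdf10, a relative of Bmp3, fell to 69.9 CPM under KU60019, against 464 CPM under DMSO (-2.73 ± 0.61, adjusted p = 0.00167). Bmp7 rose (3.40 ± 0.87, adjusted p = 0.0077), at 0.524 CPM under KU60019 and 0.0468 CPM under DMSO. Among modulators, Twsg1, a chordin partner, fell by 0.85 on the log2 scale (adjusted p = 1.11e-05), as did Chrd, which encodes chordin (-0.61 ± 0.12). The ubiquitin ligase Smurf1, which marks SMAD1 and SMAD5 for degradation, rose to 78.5 CPM, against 39.8 CPM under DMSO (0.98 ± 0.13), and Smad5 fell (-0.69 ± 0.12). Of 10 target and feedback genes tested, 5 fell and 2 rose. Atoh8 fell to 19.7 CPM, against 89.7 CPM under DMSO (-2.19 ± 0.20, adjusted p = 1.22e-07), Id4 fell (-1.80 ± 0.32) and Msx2 rose (2.16 ± 0.41).

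**Figure D4:**
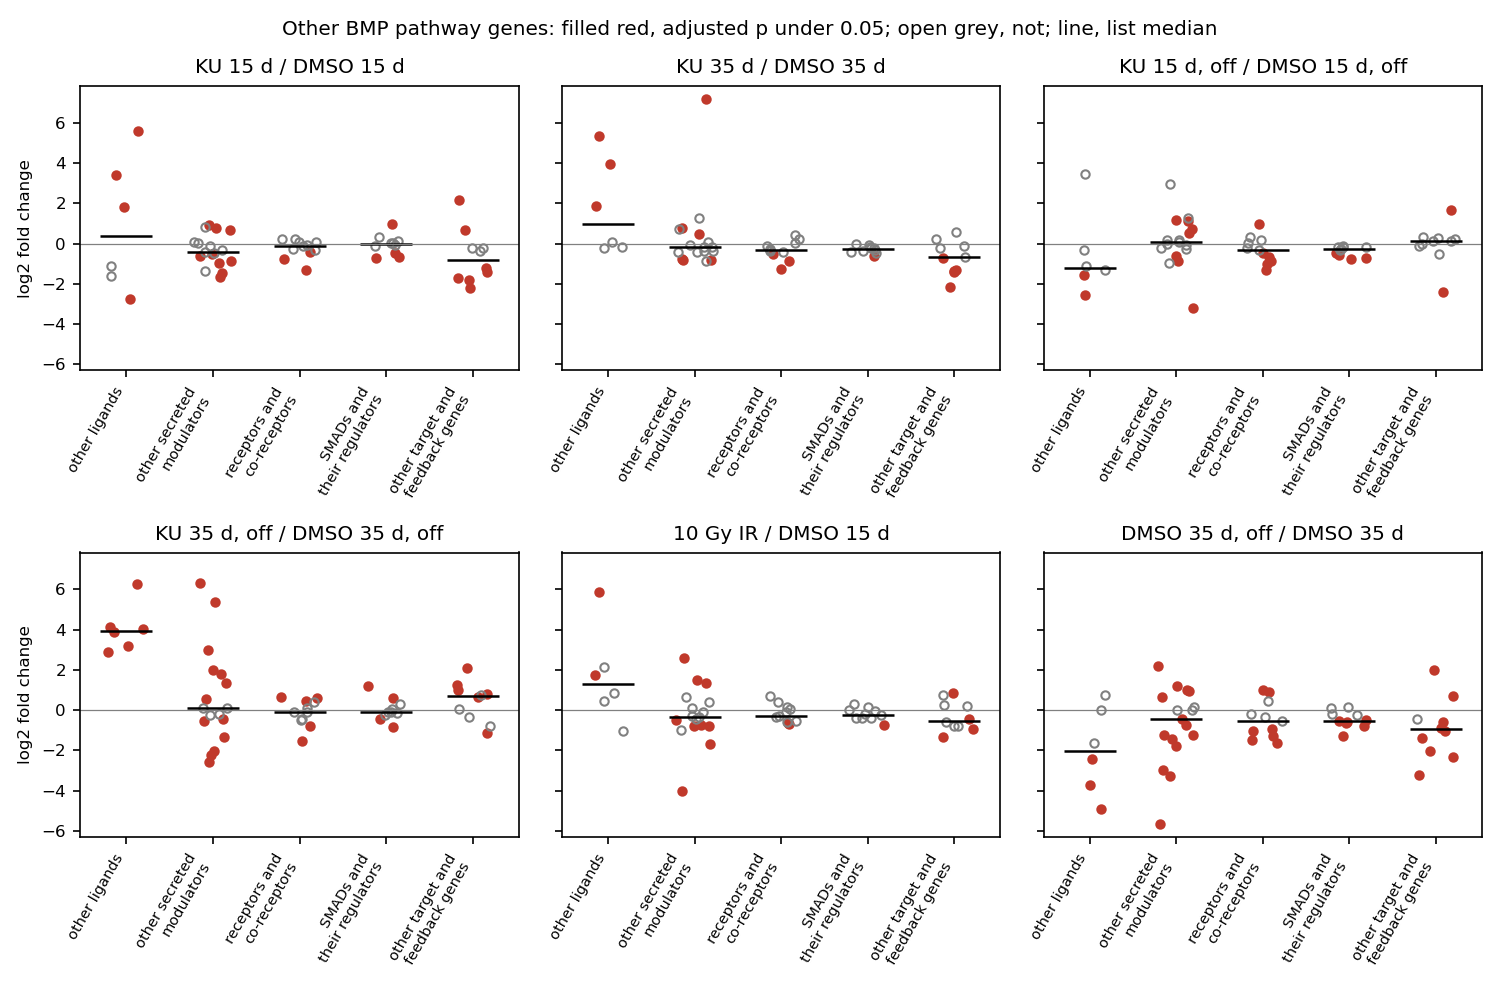
Log2 fold changes of the 54 tested genes of the other BMP pathway lists in 6 comparisons; red points passed the adjusted p threshold, open grey points did not, and the line is the list median. Fitted values of genes at 0 in a group (Bmp7, Bmp8a and Sostdc1) depend on the prior count. All 6 other ligands are above 0 after removal of the 35 d treatment, and the receptor and SMAD medians lie between -0.55 and -0.02 in every panel.

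Under KU60019 for 35 d, 6 of the 54 rose and 12 fell, where 9.7% of all genes passed higher and 8.4% lower. The median was -0.22, against -0.01 over all genes. Gdf6, a ligand of joint and eye development, rose to 19.4 CPM, against 5.42 CPM under DMSO (1.86 ± 0.52, adjusted p = 0.0155). Sostdc1, which encodes an antagonist of BMP and WNT ligands, had 49 counts in KU60019 35 d cells and 0 in DMSO 35 d cells, at least 17.9-fold higher if the DMSO group is set at 3 counts in all. Bmp1, the protease that cleaves chordin, fell to 262 CPM, against 441 CPM under DMSO (-0.75 ± 0.12, adjusted p = 0.000121). Among receptors, Bmpr1b fell (-1.28 ± 0.25, adjusted p = 0.00103), as did Bmpr1a (-0.50 ± 0.14) and the co-receptor Neo1 (-0.87 ± 0.14). Of the targets 5 fell and 0 rose, among them Id4 (-2.14 ± 0.33, adjusted p = 8.55e-05), Atoh8 (-1.37 ± 0.19) and Hey1 (-1.39 ± 0.29).

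After removal of the 15 d treatment, 6 were higher and 15 lower than in DMSO 15 d removed cells. Of all genes, 24.7% passed higher and 24% lower. The median was -0.18, against -0.01 over all genes. Among the modulators Nbl1, an antagonist also known as Dan, was higher at 415 CPM, against 188 CPM in DMSO 15 d removed cells (1.15 ± 0.15, adjusted p = 3.54e-05). Fstl3, a follistatin-like inhibitor, was lower at 3.93 CPM, against 37.3 CPM (-3.22 ± 0.52, adjusted p = 0.000154). The ligand Bmp5 was lower (-2.57 ± 0.58), as were the receptors Acvr2a (-1.29 ± 0.24) and Acvr1 (-1.01 ± 0.23). Of the other target genes 1 was higher, Msx2 (1.67 ± 0.39), and 1 was lower, Hey1 (-2.42 ± 0.32). Without library S11_715, 15 of the 54 passed in place of 21, and 6763 of all genes tested in place of 9096.

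After removal of the 35 d treatment, 23 were higher and 11 lower than in DMSO 35 d removed cells. Of all genes, 24.4% passed higher and 24.5% lower. The median was 0.12, against -0.00 over all genes. All 6 other ligands tested were higher, with a median of 3.94, or 3.54 with Bmp7 set at its bound. Against KU60019 35 d cells, 1 of the 54 was higher and 6 lower, where 12.6% of all genes passed. Of the 6 other ligands, 0 were higher and 0 lower against KU60019 35 d cells. Gdf6 had 17.3 CPM in KU60019 35 d removed cells, against 1.03 CPM in DMSO 35 d removed cells (4.14 ± 0.63, adjusted p = 1.13e-05), and Bmp5 had 3.01 CPM, against 0.177 CPM (3.88 ± 0.75, adjusted p = 0.00019). Bmp8a was higher by 4.01 ± 0.67, a value that is uncertain because its close paralog Bmp8b may share reads. Among modulators Fst, which encodes follistatin, was lower at 36.8 CPM, against 217 CPM (-2.56 ± 0.23, adjusted p = 6.76e-09). Chrd (1.32 ± 0.13) and Kcp (2.97 ± 0.42) were higher. Among targets Hey1 (2.08 ± 0.35) and the inhibitory Smad7 (1.01 ± 0.24) were higher and Id4 was lower (-1.13 ± 0.32).

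These differences from DMSO 35 d removed cells sat beside changes in the DMSO cultures, a comparison added after the values had been seen. Its genes are named on the same footing, and its adjusted p-values are likewise descriptions. In DMSO 35 d removed cells against DMSO 35 d cells, 9 of the 54 rose and 30 fell, with a median of -0.60, against -0.04 over all genes, and 64.1% of all genes passed. Gdf10 fell to 52.4 CPM, against 695 CPM in DMSO 35 d cells (-3.72 ± 0.63, adjusted p = 3.41e-05), Bmp5 fell by 4.91 and Gdf6 by 2.45 on the log2 scale. Id2 (-2.31 ± 0.41) and Id3 (-2.02 ± 0.38) fell, and Fst rose (2.20 ± 0.22, adjusted p = 5.21e-08). The DMSO 35 d group against the DMSO 15 d group gave 0 calls among the 54 genes by edgeR, with 4 at an unadjusted p under 0.05, and 1 call by DESeq2.

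In irradiated cells 6 of the 54 genes rose and 12 fell, where 14.1% of all genes passed higher and 16.8% lower. The median was -0.27, against -0.01 over all genes. Smoc2, a matricellular protein, fell to 3.66 CPM in 10 Gy cells, against 59.0 CPM in DMSO 15 d cells (-4.00 ± 0.42, adjusted p = 5.34e-07). Gdf6 rose to 13.5 CPM in 10 Gy cells, against 4.08 CPM in DMSO 15 d cells (1.73 ± 0.52, adjusted p = 0.0153). Bmp8a had 21 counts in 10 Gy cells and 0 in DMSO 15 d cells, at least 7.93-fold higher by the same bound of 3 counts in all, and in KU60019 15 d cells it had 22 counts and was at least 6.73-fold higher. Bmpr1a (-0.70 ± 0.14), Smad5 (-0.74 ± 0.12), Atoh8 (-0.93 ± 0.19) and Id2 (-1.31 ± 0.40) fell, and Smad7 rose (0.83 ± 0.24).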

How the data were processed

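RNA-seq libraries were prepared with a TruSeq RNA kit, per the labels' protocols. The authors deposited raw counts for 48440 genes and TPM values for 48082 genes, and the submitters' processing notes name featureCounts and the build mm10. The sources used here give no aligner, annotation release, strand setting or versions. Symbols were found for 48058 IDs.

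Groups were taken from the titles. All 27 libraries entered 1 group-means model in edgeR 4.0.16 (R 4.3.3) with TMM scaling and a minimum count of 10 in filterByExpr, which left 18684 genes. Robust quasi-likelihood tests with Benjamini-Hochberg adjustment used a threshold of 0.05, and the fit was tested on simulated data. Arms within a treatment were compared after the values had been seen. The members and lists were chosen with earlier results of these data known. Other pathway genes were named by a rule, the 3 lowest p-values under the threshold in each list and treated comparison, of which some are not reported here. Alternatives used DESeq2 1.42.0, limma 3.58.1 on TPM with a pseudocount of 1 or 0.1, other scalings and filters, and libraries left out. Another removed the trend of level with gene length from each library.

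Same-numbered libraries deviated together in the KU60019 15 d and DMSO 15 d groups (correlations of 0.39, 0.22 and 0.38), so these numbers were taken to pair the samples there. The fold changes and calls printed for that comparison are from the model without pairing. A fit with the replicate number as a block is given below as an alternative. The lowest chi-square per gene between libraries of a group was 7.21, so none was a duplicate. Depth per library gives counting error only for genes with few counts, such as Bmp2 and Chrdl1.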

Additional observations from a re-analysis of the deposited data

Results flagged for a closer look

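The effect of KU60019 differed between stages for several genes, by a test of the difference itself within edgeR's quasi-likelihood fit. These differences are on the log2 scale, and since the genes were chosen with these results known, they carry no p.

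The 35 d effect minus the 15 d effect was 2.49 for Bmp2, 3.49 for Bmp3, 3.65 for Chrdl1 and -1.23 for Grem1, where 11.7% of all genes passed. Bmp3 averaged 70.8 CPM in KU60019 35 d cells and 79.5 CPM in DMSO 35 d cells, and at 15 d 6.26 CPM in KU60019 cells and 79.2 CPM in DMSO cells. For Chrdl1 both TPM scales and the fit with no filter on low counts ended the call, as did leaving out 8 of the 12 libraries singly.

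The effect after removal minus that before it, for the 15 d treatment, was 2.05 for Bmp2, 4.12 for Bmp3, -2.27 for Bmp6, 6.74 for Chrdl1, -0.94 for Grem1 and 2.61 for Id1, where 25.4% of all genes passed. Without KU60019 15 d removed library S11_715 the Chrdl1 difference was 5.01. The Grem1 call was lost without S2_715 (-0.71), without S12_716 (-0.84) and in a fit of the compared groups alone.

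For the 35 d treatment the same difference was 6.42 for Bmp3, 2.001 for Bmp4, 2.85 for Bmp6, 6.08 for Chrdl2 and 1.05 for Id1, where 32.4% of all genes passed. Leaving out 8 of the 12 libraries singly ended the Id1 call, among them S21_716 (0.91) and S15_716 (0.80). Without S21_716 the Chrdl2 difference was 6.86. These differences use the DMSO 35 d removed libraries, in which Bmp3, Bmp6 and Chrdl2 held 38, 29 and 137 counts in all.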

How the results depend on the processing

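Of 1404 member values recomputed over the 9 planned comparisons, 40 lost a call and 31 gained one. With DMSO 35 d removed cells as the irradiation control 2 turned in sign, Bmp3 to 6.12, which passed, and Bmper to 0.078, which did not. With that control Bmp2, Bmp4, Bmp6 and Chrdl2 also passed as higher and Id1 as lower. Of 390 recomputed counts of calls, 363 were within 1.5 times. With the compared groups alone, KU60019 35 d removed against DMSO 35 d removed had 5487 genes (9130 in the joint fit) and 20 other pathway genes (34), and DMSO 35 d against DMSO 15 d had 14 genes (292) and 0 members (1). That last comparison had 476 genes by DESeq2, and by limma 141 on log2(TPM + 1) and 102 on log2(TPM + 0.1), with 0 members on both. On both TPM scales 33 other pathway genes passed after removal of the 15 d treatment (21 on counts), and the 35 d minus 15 d effect had 1339 genes on log2(TPM + 0.1) (2184). Irradiation had 4 members with DMSO 35 d as control, and 10075 genes, 6 members and 33 other pathway genes with DMSO 35 d removed (5765, 2 and 18 with DMSO 15 d). On TPM the highest over the lowest group mean was 12.4 for Bmp4 (8.04 on CPM) and 131 for Chrdl2 (84.4). Relative levels correlated by rank with gene length at 0.27, 0.28 and 0.18 in DMSO 15 d removed libraries. In KU60019 15 d removed libraries the values were -0.24, -0.03 and -0.13. With that trend removed, Bmp3 passed after removal of the 15 d treatment (0.75) and Bmper after that of the 35 d treatment (-0.56). Grem1 passed for 10 Gy against DMSO 15 d (0.55), and Id1 lost its call for KU60019 35 d removed against KU60019 35 d (0.80). The cause of these shifts was not tested.

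With libraries left out in turn, KU60019 15 d had 3639 genes (without DMSO 15 d library S1_705) to 7079 (without DMSO 15 d library S2_715), KU60019 35 d 1932 (without DMSO 35 d library S15_716) to 3586, the 35 d minus 15 d effect 1409 (without KU60019 15 d library S5_715) to 2319, and DMSO 35 d against DMSO 15 d 125 (without DMSO 35 d library S15_716) to 288, with 0 to 1 members. Irradiation had 1 member (without 10 Gy library S26_715) to 3. KU60019 35 d removed against KU60019 35 d had 629 genes (without S24_716) to 2513, and DMSO 15 d removed against DMSO 15 d 754 (without S9_716) to 1229. With the replicate number as a block in the paired KU60019 15 d comparison, 5561 genes (5658 without it), 6 members and 27 other pathway genes passed, and the block changed no member call in the comparisons planned. In no other planned comparison did every pair of same-numbered libraries deviate together. Few counts limit Bmp2, and Chrdl1 in KU60019 15 d and DMSO 35 d removed cells.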

Other observations

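Among the 54 other pathway genes tested with edgeR, the KU60019 effect at 35 d exceeded that at 15 d for 3 genes and was below it for 3, where 11.7% of all genes passed. The effect after removal of the 15 d treatment was above that before it for 8 genes and below it for 10, where 25.4% passed. For the 35 d treatment it was above for 18 and below for 3, where 32.4% passed.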
